A study of Mus musculus with 9 samples.

Results

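The 6 rows of a liver count table described here are an abundant row that carries an Entrez gene number without a symbol, called the unnamed row below, and the long noncoding RNAs Malat1, Neat1, Kcnq1ot1, Meg3 and H19. They are 6 of the 27179 gene rows, chosen by their share of the counts in all libraries as possible marks of the state of the RNA or the tissue: the unnamed row as an abundant row described as a ribosomal RNA locus, and the others as named nuclear RNAs. The livers came from female Apoe-/- mice, labelled WT (5 libraries, WT1 to WT5), and from female Mif-2-/- Apoe-/- mice, labelled DKO (4 libraries, DKO1 to DKO4). The study's text counts fewer WT livers than there are WT libraries in the table. All 5 WT libraries were used here. All of them therefore lacked Apoe, the deletion of Mif-2 was global, and all received a Western-type high-fat diet (HFD) for 12 weeks from the age of 8 weeks. Frozen OCT-embedded sections, which the study describes as fixed with paraformaldehyde, were lysed, and lysates of several sections were combined for a sample. RNA was washed on oligo dT25 beads, and the libraries were made with Smart-seq2, which primes on poly(A) and does not mark the strand. The comparison of the genotypes addressed what Mif-2 deficiency changes in the liver transcriptome.

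Ribosomal RNA is transcribed by RNA polymerase I in the nucleolus as a long precursor and makes up most of the RNA of a cell, although it has no poly(A) tail. Malat1 lies in nuclear speckles, where splicing factors gather, and its mature 3′ end is a triple helix formed after cleavage by RNase P rather than a tail. Neat1 is the scaffold of paraspeckles and is made as a short polyadenylated and a long form. Kcnq1ot1, Meg3 and H19 are imprinted: Kcnq1ot1 is expressed from the paternal copy and silences neighbouring genes, while Meg3 and H19 are expressed from the maternal copy. H19 is abundant in fetal liver and low in adult liver.

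Malat1 lies at chr19:5795690-5802672 on the minus strand of GRCm38 and Neat1 at chr19:5824708-5845478 on the same strand (GENCODE M21, both annotated as intergenic noncoding RNAs). Kcnq1ot1, at chr7:143203458-143296549 on the minus strand, is a single exon that lies inside the protein-coding gene Kcnq1 on the plus strand, so without strand the reads of the pair cannot be told apart where their exons overlap. H19 lies at chr7:142575529-142578143 on the minus strand and Meg3 at chr12:109541001-109571726 on the plus strand, overlapped on its minus strand by Gm26906. The unnamed row has no symbol or position in the tables used here, so its description as a ribosomal RNA locus was not checked, and its sequence is not shown.

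Because the libraries were primed on poly(A), the longest internal run of A is shown for Malat1, Neat1, Kcnq1ot1 and H19 with its flanks, read from the annotated transcripts from 5′ to 3′, with the run in capitals. Whether reads began at these runs was not tested.
Malat1, chr19:5795968-5796019: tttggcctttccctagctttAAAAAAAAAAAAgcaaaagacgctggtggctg
Neat1, chr19:5835914-5835960: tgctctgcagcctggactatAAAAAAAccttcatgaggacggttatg
Kcnq1ot1, chr7:143226925-143227005: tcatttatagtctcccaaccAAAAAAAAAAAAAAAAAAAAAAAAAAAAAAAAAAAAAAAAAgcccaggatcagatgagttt
H19, chr7:142577945-142577988: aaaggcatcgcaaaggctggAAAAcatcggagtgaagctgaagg
The run had 41 bases in Kcnq1ot1, 12 in Malat1, 7 in Neat1 and 4 in H19. The run of Malat1 ended 298 bases before the annotated 3′ end, whereas that of Kcnq1ot1 lay 23487 bases before it.

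H19 also hosts the microRNA gene Mir675, whose mature products are shown with their seeds, bases 2 to 8, in capitals (RefSeq, GRCm38.p6).
mmu-miR-675-5p: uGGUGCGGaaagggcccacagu
mmu-miR-675-3p: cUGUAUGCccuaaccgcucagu
The seeds of the pair differ. The row of Mir675 held 0 counts in each of the 9 libraries, as did those of Mir770 and Mir1906-1, which lie within Meg3, and mature microRNAs have no poly(A) tail.

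Total counts ranged from 2318148 to 10764182 per library, so that 3 counts corresponded to between 0.279 and 1.29 counts per 1000000 counts of the library (CPM). Ddt, the gene of MIF-2, had 1205 to 4820 counts in the WT and 6 to 27 in the DKO libraries. A list of 27 abundant secreted products of hepatocytes, led by Apoa1, Alb and Apoa2, took 25.6 to 28.9% of the counts in WT1 to WT4 and 29.5% in DKO2, compared with 15.4% in WT5 and 12.4 to 16.7% in DKO1, DKO3 and DKO4. WT5 and DKO2 thus stood apart from the rest of their groups, and the fold changes of the members are given with and without them. Fewer hepatocytes and less of these RNAs per hepatocyte cannot be told apart in bulk RNA.

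The unnamed row was the most abundant of the members, with rank 5 among all rows by mean CPM. The other 9 of the 10 most abundant rows were secreted proteins of hepatocytes. The row took 0.396, 0.633, 1.35, 0.640 and 2.34% of the counts in WT1 to WT5 and 0.983, 2.12, 3.19 and 2.71% in DKO1 to DKO4. WT1 was lowest and DKO3 highest, 8.07-fold apart. The groups overlapped because WT5 lay above DKO1 and DKO2, and WT3 above DKO1. After TMM normalization WT5, at 18342 CPM, lay below DKO2 (21926), and WT3, WT4 and WT5 lay above DKO1 (8355). The 95% Wilson interval was 0.392 to 0.400% in WT1 and 3.18 to 3.21% in DKO3, so counting error was small beside the differences between libraries. These intervals cover counting error only. The mean share was 1.07% ± 0.793 (SD, n = 5) in WT and 2.25% ± 0.953 (SD, n = 4) in DKO livers, and all 4 DKO libraries were above the WT median.

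**Figure D1:**
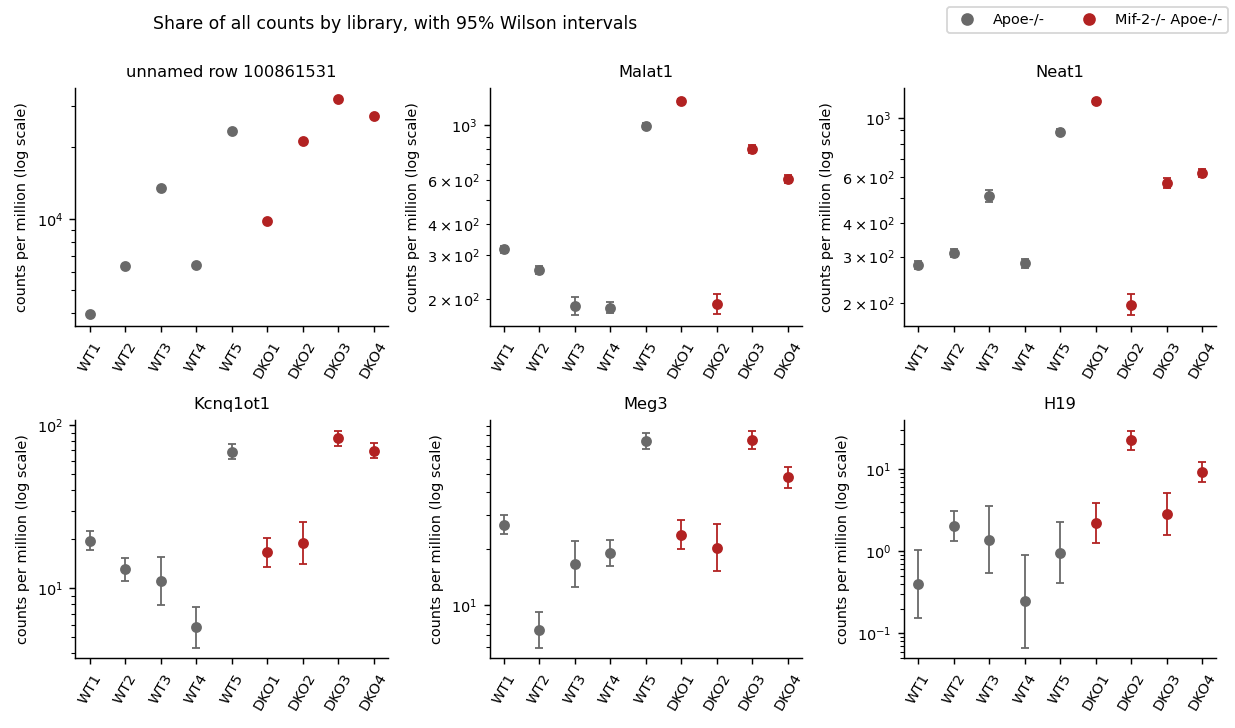
Share of all counts of each member in each library, in CPM on a log axis, with 95% Wilson intervals; grey points are Apoe-/- (WT1 to WT5) and red points Mif-2-/- Apoe-/- (DKO1 to DKO4) livers. Malat1 and Neat1 were highest in WT5 and DKO1, the unnamed row in DKO3 and DKO4, and H19 in DKO2.

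Of the 1904 rows without a symbol, row 19791 followed the unnamed row in abundance. It had 93.0, 158, 376, 147 and 515 CPM in WT1 to WT5 and 259, 745, 1105 and 866 CPM in DKO1 to DKO4, and its order over the libraries was close to that of the unnamed row. The unnamed row held 35.9 to 45.4 counts for each count of row 19791 in the WT and 28.5 to 38.0 in the DKO libraries. Among the ribosomal RNAs of mitochondria, mt-Rnr2, the large subunit RNA, had 604, 571, 921, 474 and 3198 CPM in WT1 to WT5 and 2414, 2148, 5389 and 2345 CPM in DKO1 to DKO4. WT5 lay within the range of the DKO libraries, and the remaining WT libraries lay below every DKO library. By edgeR the log2 fold change of mt-Rnr2 (WT over DKO, so that negative values are higher in DKO) was -1.23 ± 0.44 (SE; adjusted p = 0.198). Without WT5 it was -1.78 and was called by edgeR (adjusted p = 0.0220). That fit called 254 of 16225 rows, compared with 25 of 16870 with all libraries.

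The small subunit RNA mt-Rnr1 was lower, at 53.0 ± 39.3 CPM in WT (SD, n = 5) and 93.5 ± 19.6 CPM in DKO livers (SD, n = 4). Lars2 encodes the mitochondrial leucyl-tRNA synthetase, and its row was listed as one that can take up ribosomal RNA reads. It had 53.2, 79.1, 187, 86.2 and 382 CPM in WT1 to WT5 and 934, 241, 597 and 906 CPM in DKO1 to DKO4, with WT5 above DKO2. Its log2 fold change was -1.88 ± 0.47 (SE), and DESeq2 called it (adjusted p = 0.0122) where edgeR did not (adjusted p = 0.130). EdgeR called it without WT5 (-2.26, adjusted p = 0.0277) and without DKO2 (-2.13, adjusted p = 0.0390). These fits called 254 of 16225 and 271 of 16345 rows, and DESeq2 called 4.93% of the rows it gave an adjusted p. Rpph1, the RNA of RNase P, had 4.43 ± 0.839 CPM in WT (SD, n = 5) and 2.93, 3.88, 23.2 and 11.4 CPM in DKO1 to DKO4, with DKO1 below and DKO2 within the range of the WT libraries. In all, 7 of the 18 structural noncoding RNAs in the table were tested. EdgeR called none of them, and 0.148% of all rows. Of the 7, 1 had an unadjusted p under 0.05, a share near the 15.7% of all rows. Below 0 were 6 of the 7 fold changes, and the median log2 fold change of all rows was itself -0.10. The share of all rows below 0 was not counted.

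**Figure D2:**
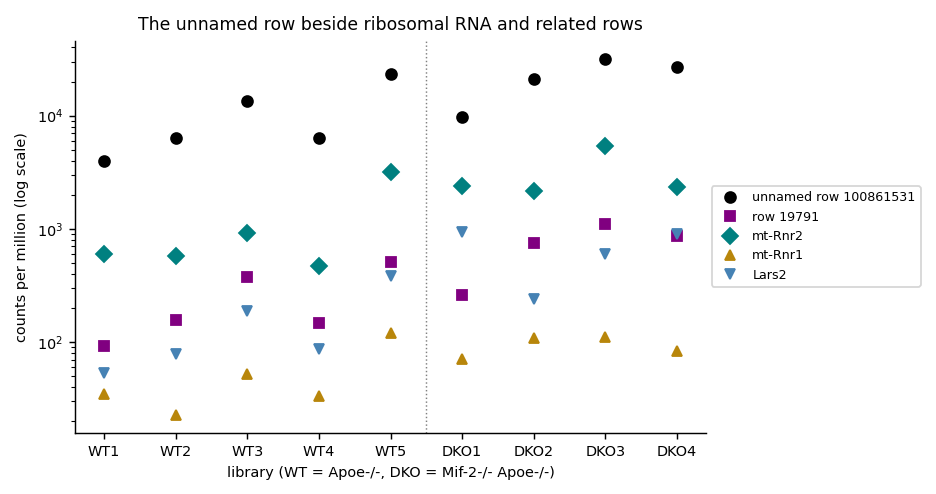
CPM on a log axis of the unnamed row, row 19791, the mitochondrial ribosomal RNAs mt-Rnr1 and mt-Rnr2, and Lars2, in each of the 9 libraries; the dotted line parts WT from DKO. The unnamed row (black circles) and row 19791 (purple squares) follow nearly the same order over the libraries, and mt-Rnr2 of WT5, at 3198, lies among the DKO values.

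Malat1, the speckle RNA, had 317, 262, 187, 185 and 991 CPM in WT1 to WT5. The DKO libraries had 1247, 192, 804 and 609.6 CPM. WT5, DKO1, DKO3 and DKO4 were high and WT1 to WT4 and DKO2 low, so the groups overlapped in both directions. The 95% Wilson interval was 176 to 195 CPM in WT4, the lowest, and 1218 to 1277 CPM in DKO1, the highest. The high libraries of Malat1 were those with a low share of hepatocyte secreted products. The part of the hepatocyte share in this pattern was not tested. The summed share of 9 endothelial markers, led by Stab1, Stab2 and Clec4g, followed the same split of libraries. It was 0.0624% in WT5 and 0.0743 to 0.0811% in DKO1, DKO3 and DKO4. WT1 to WT4 had 0.0294 to 0.0468% and DKO2 had 0.0169%. The split was not particular to these markers. Genes of RNA polymerase I and ribosome biogenesis took 0.197 to 0.256% in WT5, DKO1, DKO3 and DKO4. In WT1 to WT4 and DKO2 they took 0.123 to 0.148%. By edgeR, 4 of the endothelial markers had fold changes above 0 and 5 below. None of these markers was at 0 in all libraries, and the part of endothelial cells was not tested.

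Neat1, the paraspeckle RNA, had 279, 309.9, 507, 283 and 885 CPM in WT1 to WT5 and 1154, 197, 570.0 and 621 CPM in DKO1 to DKO4. DKO1 was again highest, followed by WT5, and DKO2 was lowest, with WT3 closer to DKO3 than to the other low WT libraries. After TMM normalization WT3, at 557 CPM, lay above DKO3 (437) and beside DKO4 (558). Malat1 held from 0.370 counts per count of Neat1 in WT3 to 1.41 in DKO3. Over the 9 libraries the pair had a Pearson r of 0.749 on log2(TMM CPM + 0.5), whereas Malat1 and the unnamed row had an r of 0.063. Each r is a description, since libraries of a group share a genotype and the same libraries differ in hepatocyte share. The unnamed row held 7.88 counts per count of Malat1 in DKO1 and 110 in DKO2.

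**Figure D3:**
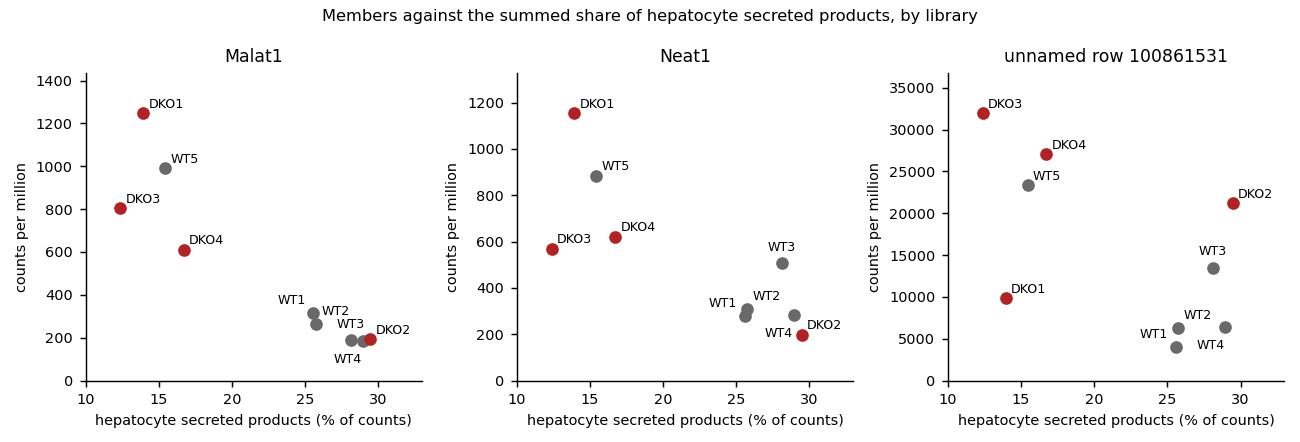
Malat1, Neat1 and the unnamed row, in CPM of each library, against the share of counts of 27 secreted products of hepatocytes; grey points are WT and red points DKO. The 4 libraries at 12.4 to 16.7% had the highest Malat1 and Neat1 values in this unit. After TMM normalization Neat1 was higher in WT3 than in DKO3. The unnamed row in DKO2, at 29.5%, lay near WT5, at 15.4%.

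Kcnq1ot1, the antisense RNA of the Kcnq1 locus, had 19.6, 13.1, 11.1, 5.77 and 69.0 CPM in WT1 to WT5. The DKO libraries had 16.6, 18.98, 83.0 and 70.0 CPM. WT5, DKO3 and DKO4 were far above the rest, and DKO1 and DKO2 lay below WT1. DKO1, the highest library for Malat1, was thus among the low ones for Kcnq1ot1. The 3 high libraries were also those with the most rows detected, from 17335 to 18631 with a count compared with 14220 to 16557 in the others; the part of this in the Kcnq1ot1 values was not tested. Kcnq1, which encodes a potassium channel subunit, was low, at 3.86 ± 3.35 CPM in WT (SD, n = 5) and 3.72 ± 3.86 CPM in DKO livers (SD, n = 4), with at most 49 counts in a library.

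Meg3 had 26.8, 7.43, 16.6, 18.9 and 74.4 CPM in WT1 to WT5 and 23.8, 20.3, 75.4 and 47.8 CPM in DKO1 to DKO4. WT5 and DKO3 were nearly alike at the top, DKO4 lay between them and the rest, and DKO1 and DKO2 lay between WT1 and WT4. Kcnq1ot1 and Meg3 had an r of 0.751 over the 9 libraries. Both were highest in WT5, DKO3 and DKO4, the libraries with the most rows detected. The part of this in the Meg3 values and in the r was not tested. Rian and Mirg, the noncoding RNAs next to Meg3, had no more than 17 counts in a library.

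H19 was the scarcest member, with 4, 22, 4, 2 and 5 counts in WT1 to WT5 and 12, 52, 11 and 46 counts in DKO1 to DKO4. In CPM these were 0.401, 2.04, 1.39, 0.245 and 0.958 in WT and 2.19, 22.4, 2.86 and 9.20 in DKO livers. DKO2 was 91.4-fold above WT4, which held 2 counts. Every DKO library was above every WT library in this unit, as were 2.77% of the 16870 rows tested. The margin was narrow, as the 95% Wilson intervals of WT2 (1.35 to 3.09 CPM) and DKO1 (1.26 to 3.84 CPM) overlapped, and after TMM normalization WT2, at 2.50 CPM, lay above DKO1 (1.86) and DKO3 (2.19). The highest DKO library, DKO2, had the smallest total, in contrast to Malat1 and Neat1, which were low there. Igf2, the growth factor gene that shares its enhancers with H19, had at most 19 counts in a library, with 0.376 ± 0.278 CPM in WT (SD, n = 5) and 0.366, 0.431 and 0.780 CPM in DKO1 to DKO3. DKO4 stood alone above the rest, with the 19 counts.

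Levels were compared between the 5 noncoding RNAs per kb of annotated exon. Because RNA was captured and primed on poly(A), the order holds capture as well as abundance, and the part of each was not tested. Malat1 led with 55.6 ± 48.9 CPM per kb in WT (SD, n = 5) and 102 ± 62.7 in DKO livers (SD, n = 4), followed by Neat1 with 21.8 ± 12.5 and 30.6 ± 18.96 CPM per kb. Within each of the 9 libraries Malat1 was above Neat1, by 1.10- to 4.19-fold, and Neat1 above Meg3, by 6.58- to 42.3-fold. Meg3, with 1.59 ± 1.46 and 2.31 ± 1.41 CPM per kb, was above H19 in 6 of the 9 libraries, so this pair did not keep its order. H19, with 0.409 ± 0.299 and 3.73 ± 3.82 CPM per kb, was in turn above Kcnq1ot1, with 0.255 ± 0.277 and 0.506 ± 0.368 CPM per kb, in 7 of 9. These means lean on single libraries. Without WT5 the WT mean of Malat1 was 238 CPM rather than 388, that of Kcnq1ot1 12.4 rather than 23.7 and that of Meg3 17.5 rather than 28.8. Without DKO2 the DKO mean of H19 was 4.75 CPM rather than 9.17. The length of Neat1 is that of its long form, so its level per kb is too low for reads from the short form. In counts, Malat1 held 0.370 to 1.41 for each count of Neat1. An annotated shorter transcript of Neat1 has 3004 bases, compared with 6983 for Malat1. The order of Malat1 and Neat1 per kb thus depends on the length used, and which form gave the reads was not tested.

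**Figure D4:**
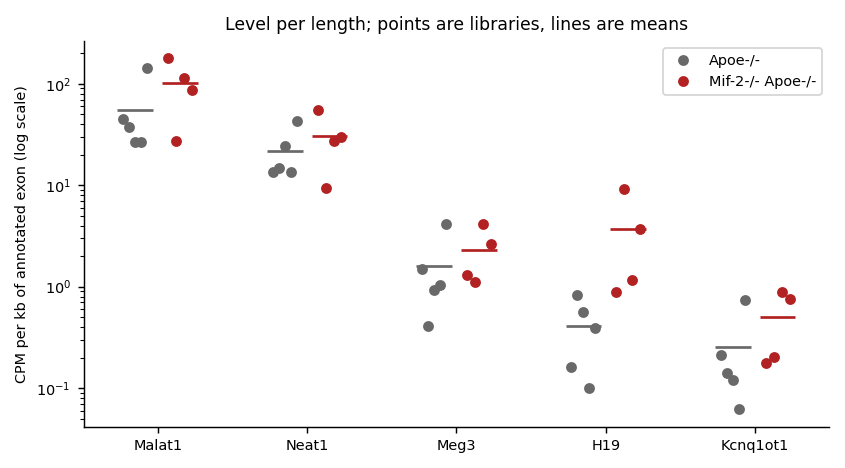
Level of each noncoding RNA in CPM per kb of annotated exon, on a log axis; points are libraries, lines the group means, grey for WT and red for DKO. Malat1 and Neat1 lie above the other 3 in every library.

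The difference between the genotypes was tested with edgeR over the 16870 rows that passed the filter on low counts, all 6 members included. Of all rows tested, 0.148% were called at an adjusted p under 0.05, and none of the 6 members was. At an unadjusted p under 0.05, which 15.7% of all rows reached, H19 was the only member to pass. The median log2 fold change of all rows was -0.10, and all 6 members had values further below 0 than this.

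The log2 fold change of the unnamed row was -0.86 ± 0.46 (SE; edgeR adjusted p = 0.385). Without WT5 it was -1.13 and without DKO2 -0.81. For Malat1 it was -0.65 ± 0.46 (SE; edgeR adjusted p = 0.533), -1.08 without WT5, -0.94 without DKO2 and -0.24 without DKO1. Neat1 had -0.21 ± 0.41 (SE; edgeR adjusted p = 0.852), with -0.40 and -0.49 without WT5 and DKO2, and turned to 0.23 without DKO1. Kcnq1ot1 had -0.82 ± 0.60 (SE; edgeR adjusted p = 0.546), with -1.44 without WT5 and -1.05 without DKO2. Meg3 had -0.31 ± 0.53 (SE; edgeR adjusted p = 0.832), with -0.74 and -0.49, and turned to 0.03 without DKO3.

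H19 showed the largest difference of the members, at -2.96 ± 1.06 (SE), and edgeR gave it an unadjusted p of 0.0137 (adjusted p = 0.205). DESeq2, which called 4.93% of the 14686 rows it gave an adjusted p, called H19 (-3.11 ± 0.97, SE; adjusted p = 0.0364) and no other member, the other adjusted p-values running from 0.258 to 0.801. Without DKO2 the edgeR value fell to -1.87 (adjusted p = 0.408), and without WT5 it was -2.85 (adjusted p = 0.148). The call thus depended on the tool, and the size on DKO2.

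**Figure D5:**
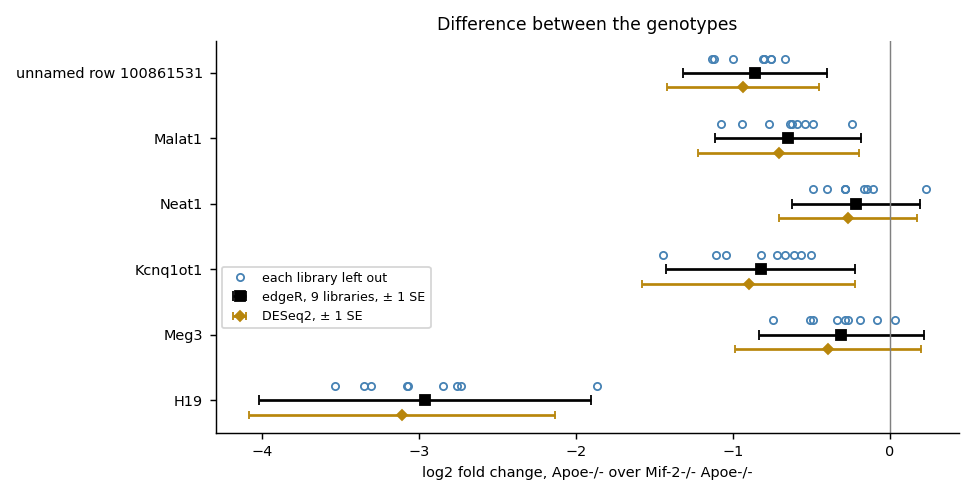
Log2 fold change of each member, WT over DKO, so that values left of 0 are higher in DKO; black squares are edgeR and ochre diamonds DESeq2 with 1 SE, and open circles edgeR with each of the 9 libraries left out. The circles of Neat1 and Meg3 reach past 0, to 0.23 and 0.03, and those of H19 run from -3.53 to -1.87.

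Genes that work with these RNAs were counted from lists. Of 30 genes of nuclear speckle and SR proteins, 25 had fold changes below 0, with a median log2 fold change of -0.34 compared with -0.10 for all rows. The share of all rows below 0 was not counted. EdgeR called none. Only 1, Luc7l2 (-1.02 ± 0.39, SE, edgeR adjusted p = 0.230), had an unadjusted p under 0.05, which 15.7% of all rows reached. The summed share of the 30 genes was 0.255% in WT5 and 0.220 to 0.392% in DKO1, DKO3 and DKO4. It was 0.109 to 0.170% in WT1 to WT4 and 0.160% in DKO2. This is the split of libraries seen in the hepatocyte products, and its part in the fold changes was not tested. Ddx39b, an RNA helicase of mRNA export, had 194 ± 51.9 CPM in WT (SD, n = 5) and 294 ± 93.6 CPM in DKO livers (SD, n = 4). Son, a large speckle scaffold, had 164 ± 104 and 260.0 ± 148 CPM, and the splicing factor gene Srsf4 had 121 ± 87.3 and 249 ± 141 CPM. The 26 genes of paraspeckle proteins, led by Smarca4, Ewsr1 and Hnrnpm, had a median of -0.07, with none called and none at an unadjusted p under 0.05.

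Of 51 genes of RNA polymerase I and ribosome biogenesis, edgeR called none and 7 had an unadjusted p under 0.05, a share near the 15.7% of all rows, with a median log2 fold change of -0.09. DESeq2 called 3 of the 51, near its 4.93% of all rows: Nhp2 and Nop58, which encode proteins of box H/ACA and box C/D ribonucleoproteins, and Nop2, which encodes an rRNA methyltransferase. Nhp2 had 86.4 ± 19.5 CPM in WT (SD, n = 5) and 39.6 ± 14.95 CPM in DKO livers (SD, n = 4). EdgeR called it without WT5 (adjusted p = 0.0461), in the fit that called 254 of 16225 rows. Nop58, with 3.20 ± 1.51 and 13.3 ± 4.05 CPM, and Nop2, with 32.4 ± 10.6 and 85.3 ± 43.7 CPM, were higher in DKO. The most abundant of the list were Ubtf, the factor that opens rDNA for transcription (178 ± 64.3 CPM in WT and 163 ± 25.3 CPM in DKO), Mybbp1a (100.2 ± 51.0 and 230.3 ± 99.99 CPM) and the nucleolar protein gene Ncl (109.6 ± 10.3 and 109.5 ± 19.1 CPM). These means are not TMM-normalized, and the edgeR log2 fold change of Ncl was 0.44 without WT5 and 0.45 without DKO2. In the same fits those of Ubtf were above 0 and those of Mybbp1a below 0.

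Of 11 genes of the Kcnq1ot1 domain, 9 were tested and edgeR called none. DESeq2, which called 4.93% of all rows it gave an adjusted p, called 1 of the 9. This was Cd81, a tetraspanin gene (adjusted p = 0.0328), with 284 ± 65.1 CPM in WT (SD, n = 5) and 149 ± 30.6 CPM in DKO livers (SD, n = 4). EdgeR called it without WT5 (adjusted p = 0.0392), in the fit that called 254 of 16225 rows. Slc22a18, a transporter gene, had 392 ± 54.6 and 302 ± 79.5 CPM, and Tssc4 had 65.9 ± 8.90 and 71.2 ± 34.5 CPM. These means are not TMM-normalized, and the edgeR log2 fold change of Tssc4 was 0.42 without WT5 and 0.23 without DKO2. Those of Slc22a18 were above 0 as well. Phlda2, an imprinted growth gene, had at most 42 counts in a library. Among 13 genes of the H19 and Meg3 domains, 10 were tested and edgeR called none, and the most abundant was Mrpl23, with 117 ± 42.4 and 88.5 ± 46.9 CPM. In a wider list of imprinted growth genes, led by Gnas, Slc38a4 and Dcn, 18 of 22 were tested and none was called by edgeR. Of the 18, 1 had an unadjusted p under 0.05, which 15.7% of all rows reached.

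Other long noncoding RNAs were compared as 43 tested rows, with a median log2 fold change of -0.16. EdgeR called none of them, and 2 had an unadjusted p under 0.05, which 15.7% of all rows reached. The most abundant of these RNAs were 0610005C13Rik (277 ± 61.5 CPM in WT and 337 ± 75.8 CPM in DKO), Snhg20 (207 ± 59.9 and 273 ± 117 CPM) and Xist, the RNA of the inactive X chromosome (88.9 ± 23.4 and 169 ± 79.9 CPM). These means are not TMM-normalized. The edgeR log2 fold change of 0610005C13Rik was 0.19 without WT5 and 0.07 without DKO2, so above 0 in both fits. Those of Snhg20 and Xist were below 0 in both. Of 10 mitochondrially encoded genes tested, led by ND4, CYTB and COX1, 9 had fold changes below 0. Their median log2 fold change was -0.40, compared with -0.10 for all rows. The shares of all rows below and above 0 were not counted. None was called by edgeR and none had an unadjusted p under 0.05, which 15.7% of all rows reached. The summed share of the mitochondrially encoded genes was 0.0959 to 0.292% in WT and 0.161 to 0.310% in DKO libraries. All 27 genes of the hepatocyte products had fold changes above 0 and 19 an unadjusted p under 0.05, compared with 15.7% of all rows, and edgeR called none of them. DESeq2, which called 4.93% of all rows it gave an adjusted p, called 5 of the 27 as higher in WT. EdgeR also called 5 without WT5, where it called 254 of 16225 rows, and 6 without DKO2, where it called 271 of 16345. Because WT5 and DKO2 were set apart by the share of this same list, these 2 counts follow from that choice and are no separate result. Over the 11 Kupffer cell and macrophage markers, led by Clec4f, Cd5l and Lyz2, the share was 0.119 to 0.176% in WT and 0.139 to 0.161% in DKO libraries. No marker of hepatocytes (9 tested), Kupffer cells and macrophages (11), endothelial cells (9), stellate cells and fibroblasts (10), cholangiocytes (5), lymphocytes (8), red cells (4) or neutrophils (3) was called by edgeR. DESeq2, which called 4.93% of all rows it gave an adjusted p, called 1 marker in each of 3 lists. These were the hepatocyte marker Pck1, a gluconeogenic enzyme gene, as higher in DKO, and the macrophage marker Cd5l and the T cell marker Cd3d as higher in WT. By edgeR, 7 of the 9 hepatocyte markers had fold changes above 0, against the direction of Pck1. Of the 8 lymphocyte markers 5 were below 0, against that of Cd3d, and 8 of the 11 macrophage markers were above 0. EdgeR called Cd5l without WT5 and the red cell marker Hba-a2, a haemoglobin gene, without DKO2, both higher in WT, in fits that called 254 and 271 rows in all.

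The rows most like each member over the 9 libraries were found among 7405 rows with a mean of at least 10 CPM, by Pearson r on log2(TMM CPM + 0.5), as a description. Row 19791 was closest to the unnamed row (r = 0.985, and 0.987 after subtraction of the genotype means), followed by Foxp1 (r = 0.972), a transcription factor gene. Duxf3, a multicopy homeobox gene, came next (r = 0.954) and ranged from 0.100 CPM in WT1 to 117 CPM in DKO3. Malat1 was most like Huwe1 (r = 0.983), which encodes a large ubiquitin ligase, Baz1b (r = 0.957), a chromatin remodeller gene, and Gapvd1 (r = 0.956). Huwe1 had 257 CPM in WT5 and 311 CPM in DKO1 compared with 33.3 CPM in WT3.

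Neat1 was most like B230208H11Rik (r = 0.964), Fam114a2 (r = 0.946) and Kdm1a (r = 0.914), the gene of a histone demethylase. Kcnq1ot1 was most like Galnt9 (r = 0.957), Rcan3 (r = 0.950) and the RNA helicase gene Ddx55 (r = 0.946). Galnt9 had 30.9 to 49.2 CPM in WT5, DKO3 and DKO4 and at most 1.10 CPM elsewhere, so its r rests on these libraries. Meg3 had the weakest neighbours, Snx9 (r = 0.869), Zyg11b (r = 0.868) and Ttc21a (r = 0.857). H19, with a mean under 10 CPM, was left out of this search.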

How the data were processed

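The deposited counts are whole numbers for each Entrez gene and are not normalized. The authors made them with FastQC, cutadapt and HISAT2, and the labels' processing notes name mm10. The unnamed row is Entrez number 100861531. The table held 27179 gene rows, and 1 second header line was left out. RefSeq names (GRCm38.p6) matched 25275 rows. Positions came from GENCODE M21, of the same build. CPM are counts per 1000000 of all counts, and shares were not tested between the genotypes, since the members were chosen by them. Means in CPM are not TMM-normalized unless stated, so they can differ in direction from the fold changes.

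Rows were kept where 3 or more libraries of 1 genotype held 1 count or more, and were tested with edgeR 4.0.16 (quasi-likelihood, TMM, Benjamini-Hochberg) under R 4.3.3. Leaving out the 10 most abundant genes, which would drop the unnamed row, was an alternative. SE is the log2 fold change over the square root of F. DESeq2 1.42.0, size factors, filters, a replicate block and each library left out were alternatives, and DESeq2 on filtered rows was added after seeing the data. The members and lists were chosen with earlier results of these data known. Named genes were the members, from each list the 3 most abundant rows, and the 3 rows most like each member; Luc7l2, Nhp2, Nop58, Nop2, Phlda2, Kcnq1, Rian, Mirg, Igf2, Pck1 and Cd3d were added after their values were seen. The labels do not say which mouse gave each library, so p-values measure the spread between libraries. A further sequence is not reported here.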

Additional observations from a re-analysis of the deposited data

Results flagged for a closer look

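Within WT, WT5 lay far from the other libraries in 3 of the 6 members. Malat1 had 991 CPM there, with 317 CPM in the next WT library. Kcnq1ot1 had 69.0 CPM, with 19.6 CPM in the next. Meg3 had 74.4 CPM, with 26.8 CPM in the next. A distance of this size relative to the range is met by chance in about 1 group of 20, but the members were chosen by these same shares, so the values are a description and not a test. The 3 values come from 1 library and are not independent of each other.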

How the results depend on the processing

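The number of rows called was 25 by edgeR, 724 by DESeq2, 686 by DESeq2 on the filtered rows and 639 with the replicate block, and 9 to 271 with a library left out (254 without WT5 and 271 without DKO2). The correlations of same-numbered libraries were 0.127, 0.00945, 0.0624 and -0.0105, and 2 of 8 libraries were most like the one of their own number, so the numbers were not taken to pair the libraries; the block also drops WT5, and with it the unnamed row had a log2 fold change of -1.14 (edgeR adjusted p = 0.0662). With a library left out, the log2 fold change ran from -1.13 to -0.66 for the unnamed row, -1.08 to -0.24 for Malat1, -0.49 to 0.23 for Neat1 (reversed without DKO1), -1.44 to -0.50 for Kcnq1ot1, -0.74 to 0.033 for Meg3 (reversed without DKO3) and -3.53 to -1.87 for H19. H19 was called by DESeq2 at -3.11, on all and on the filtered rows. Of 106 member fold changes recomputed, 102 kept their direction and side of the threshold. In the lists, DESeq2 called 1 row that shares sequence with rRNA, 1 gene of the Kcnq1ot1 domain, 3 of RNA polymerase I, 5 hepatocyte products and 1 marker each of hepatocytes, macrophages and lymphocytes, and TMMwsp 1 hepatocyte product; leave-one-out fits called 0 to 1 in the structural RNA, rRNA-sharing, Kcnq1ot1 domain and RNA polymerase I lists and 0 to 6 hepatocyte products. The causes were not tested, and WT5 and DKO2 were set apart by the share of the hepatocyte products themselves. The unnamed row has no value where it or the 10 most abundant rows were left out. Depth limits H19 most, with 2 to 52 counts. The median log2 fold change of all rows was -0.10 with TMM, -0.19 with RLE and 0.00 with TMMwsp.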
